A study of Mus musculus with 12 samples.

Results

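The molecular chaperones described here are the 72 genes, of 23337 in the count tables, whose symbols begin Hspa, Hspb, Hspd, Hspe, Hsph or Hsp90 followed by a number, or Dnaja, Dnajb or Dnajc followed by a number. They were chosen by name and not by level, though with earlier results of these data known. They comprise 27 heat shock protein genes and 45 J-domain genes, and were sorted by the place where the protein works into 37 of the cytosol and nucleus, 13 of the endoplasmic reticulum (ER), 8 of the mitochondrion and 14 of other or unassigned places. RNA was measured in peeled urothelium, the epithelial lining of the urinary tract separated from the layers under it, of mice that were Stag2-WT (WT) or Stag2-KO (KO). STAG2 belongs to cohesin, a ring-shaped complex that keeps sister chromatids joined and shapes chromatin loops. All mice, WT included, were fed a diet containing TMX (taken to be tamoxifen, the inducing agent in the labels) for a week, and were killed at 1 week or at 1 month from its start, so that the earlier group was taken as the diet ended. Each of the 4 groups (WT and KO at 1 week, WT and KO at 1 month) had 3 libraries. The recombinase that TMX acts on, the cells it is active in, and the age and sex of the mice are not given in the sources used here.

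HSP70 proteins hold unfolded stretches of other proteins in cycles of ATP binding and hydrolysis. J-domain proteins, encoded by the Dnaj genes, bring them their clients and start hydrolysis, and HSP110 proteins help release the nucleotide. HSP90 acts later, on nearly folded clients such as kinases and steroid receptors, and small heat shock proteins keep damaged proteins from clumping. In the cytosol the inducible members are driven by the factor HSF1, which binds heat shock elements made of repeated NGAAN units in alternating direction. In the ER, Hspa5 (BiP) and Hsp90b1 (GRP94) are driven by the unfolded protein response through ER stress response elements. Mitochondria hold their own HSP70 (Hspa9) and the chaperonin of Hspd1 and Hspe1. Many of these genes are also known to respond to heat and to the handling of tissue.

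Both control elements are written in the promoters of some members described below, and 5 such stretches are shown for that reason. RefSeq (GRCm38.p6) promoters were matched by symbol for 58 of the 72 members, and the 250 bases before each start were searched on both strands. The members without a match, among them Hsp90aa1, Hsp90ab1, Hspa8 and Hspa9, were not searched. Each promoter below is printed 5′ to 3′ on the gene's own strand, with the matches in capitals. Hsph1, Hspa1b, Hspa5 and Hsp90b1 are given with the 250 bases before the RefSeq start. For Hspd1 and Hspe1 the stretch between their divergent RefSeq starts is shown, on the strand of Hspd1. GENCODE M21 starts some of these genes further upstream than RefSeq, inside the stretch shown or, for Hspd1, beyond it. By the GENCODE starts, Hspd1 and Hspe1 overlap, and the marked elements of Hsph1, Hspa5 and Hspd1 lie inside those genes.
Hsph1, chr5:149636337-149636586, minus strand: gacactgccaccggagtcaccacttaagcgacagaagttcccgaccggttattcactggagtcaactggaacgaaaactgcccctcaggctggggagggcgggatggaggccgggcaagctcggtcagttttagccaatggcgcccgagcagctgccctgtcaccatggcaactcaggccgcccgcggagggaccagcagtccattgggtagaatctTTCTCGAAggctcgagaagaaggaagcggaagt
Hspd1 and Hspe1, chr1:55087933-55088147, minus strand: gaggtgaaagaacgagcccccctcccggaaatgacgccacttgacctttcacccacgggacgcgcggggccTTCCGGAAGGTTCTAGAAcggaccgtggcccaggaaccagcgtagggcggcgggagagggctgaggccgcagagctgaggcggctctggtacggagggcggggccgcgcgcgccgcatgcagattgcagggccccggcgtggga
Hspa1b, chr17:34959239-34959488, minus strand: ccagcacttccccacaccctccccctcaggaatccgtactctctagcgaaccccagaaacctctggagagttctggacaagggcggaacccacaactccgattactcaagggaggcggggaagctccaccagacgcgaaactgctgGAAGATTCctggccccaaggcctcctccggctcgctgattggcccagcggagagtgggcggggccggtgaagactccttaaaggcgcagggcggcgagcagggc
Hspa5, chr2:34771840-34772089, plus strand: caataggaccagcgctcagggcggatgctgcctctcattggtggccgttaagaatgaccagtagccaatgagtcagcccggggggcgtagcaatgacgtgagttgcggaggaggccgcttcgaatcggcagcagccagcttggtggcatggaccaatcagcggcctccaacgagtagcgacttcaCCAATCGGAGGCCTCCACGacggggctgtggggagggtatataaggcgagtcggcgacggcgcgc
Hsp90b1, chr10:86705445-86705694, minus strand: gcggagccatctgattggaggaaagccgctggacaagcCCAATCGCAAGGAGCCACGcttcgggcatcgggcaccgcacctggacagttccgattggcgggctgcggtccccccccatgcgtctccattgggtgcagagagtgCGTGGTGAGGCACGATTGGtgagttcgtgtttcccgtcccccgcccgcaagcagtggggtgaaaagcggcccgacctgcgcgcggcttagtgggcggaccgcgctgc
The capitals mark a heat shock element of 2 units (GAANNTTC or TTCNNGAA) in Hsph1 and Hspa1b, 2 overlapping elements of 3 units (GAANNTTCNNGAA or TTCNNGAANNTTC) between Hspd1 and Hspe1, and the ER stress response element (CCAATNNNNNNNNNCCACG or its reverse complement) in Hspa5 and, at 2 places, in Hsp90b1. The element of 2 units was present in 14 of 58 member promoters (24.1%) and in 14.5% of 27025 genes with a promoter in the table. The element of 3 units, which contains that of 2 units, was present in 3 members (Dnajb6, Hspd1 and Hspe1, 5.17%) and in 0.514% of genes. The matches of Hspd1 and Hspe1 are the same bases of their shared promoter and are counted for each gene, in both shares. The ER stress response element was present in 3 members (Dnajc3, Hsp90b1 and Hspa5, 5.17%) and in 0.13% of genes. These matches describe letters only.

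Libraries held between 5580961 and 9497088 counts, so that 3 counts correspond to 0.316 to 0.538 CPM (counts normalised to the size of the library) before scaling. CPM are scaled here by the trimmed mean of M values (TMM) within each time, so levels are compared within a time only. Stag2 was at 128 ± 23.9 CPM in WT and 68.9 ± 7.57 in KO at 1 week, and at 55.8 ± 8.32 and 31.2 ± 10.3 at 1 month (mean ± SD, n = 3), with no overlap at either time. KO replicate 3 of 1 week stood apart: its Spearman correlation across genes with the other libraries of that time was 0.689 to 0.809. Xist, expressed from an inactive X chromosome, was at 1149 to 1379 CPM in every KO library of 1 week and 1181 in KO replicate 3 of 1 month, and at no more than 3.45 in the other 8 libraries. At 1 week genotype and Xist state can therefore not be told apart. The labels give batch 1 for all of 1 week, batch 2 for replicates 1 and 2 of each genotype at 1 month and batch 3 for both replicates 3 at 1 month, so time and batch cannot be told apart either. In bulk tissue, fewer cells of a type and less RNA per cell cannot be told apart.

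At 1 week heat shock protein genes were mostly higher in KO than in WT urothelium and J-domain genes went both ways, but no member passed the test. Of 22 heat shock protein genes tested, 18 had a higher fitted level in KO (median log2 difference 0.52). So had 16 of 38 J-domain genes (median -0.03) and 51.5% of all genes (median 0.02). This split by symbol was not among the planned groupings, which were the compartments, and was not repeated without KO replicate 3. In the planned cytosolic group, 18 of 28 members tested were higher in KO (median log2 difference 0.17). Over all members it was 34 of 60 (median 0.12), and the other compartments are given below. With edgeR's quasi-likelihood test and Benjamini-Hochberg adjustment over all genes, 0 of 60 members tested passed an adjusted p of 0.05, where 0.0627% of all genes passed (8 of 12754). At an unadjusted p under 0.05 there were 10 members (5 higher and 5 lower, 16.7%), near the 15.5% of all genes. DESeq2 called 3 members, all lower in KO (Dnajc17, Dnajc6 and Dnajc7), among 6.32% of genes. The CPM of the 3 KO libraries lay above all 3 WT libraries for 14 of 60 members (23.3%), where 14.1% of all genes did so, and below them for 9 members (15%), where 12.5% of genes did. The 14 were Dnaja1, Dnajb1, Dnajc1, Dnajc15, Dnajc18, Hsp90aa1, Hsp90b1, Hspa12b, Hspa4, Hspa4l, Hspa5, Hspa8, Hspd1 and Hsph1. The 9 were Dnajb4, Dnajc12, Dnajc16, Dnajc17, Dnajc19, Dnajc27, Dnajc28, Dnajc6 and Dnajc7, all of them J-domain genes. Without KO replicate 3 the counts were 16 higher (20.8% of genes) and 12 lower (16.9% of genes); leaving out a library can only add to such counts.

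At 1 month no member passed either. Of 22 heat shock protein genes tested, 9 were higher in KO (median log2 difference -0.13). So were 17 of 35 J-domain genes (median -0.08) and 49.6% of all genes (median -0.01). In the planned cytosolic group it was 11 of 27 (median -0.09), and over all members 26 of 57 (median -0.09). Scaled by library size alone, the median over all genes was 0.22, and small differences at this time changed sign with it (Hspb1 to 0.14, Hspa5 to 0.0199, the cytosolic median from -0.09 to 0.14). With batch as a covariate, edgeR called 0 of 57 members, where 2.22% of genes were called (269 of 12139). The unadjusted p was under 0.05 for 10 members (3 higher and 7 lower, 17.5%), beside 21.5% of genes, and DESeq2 called 2 of 56 members, Hspa1b higher and Hsp90ab1 lower, among 6.21% of genes. Only Hspa9 lay above all WT libraries (1.75% of members, 5.72% of genes), and Dnajb14, Dnajc10, Dnajc13 and Hspa12b lay below them (7.02% of members, 7.58% of genes). The batches differed. In batch 2 alone, with 2 libraries a genotype, edgeR called 7 of 56 members, a share near the 12.2% of all genes. Of these Dnaja2, Dnajc7 and Hspa1b were higher and Dnajb1, Dnajb12, Hsp90b1 and Hsph1 lower. Batch 3 has 1 library of each genotype, which also differ in Xist, and gives no test. The difference of the genotype effect between the times, tested over all 12 libraries, passed for 0 of 62 members and 0% of 13122 genes, with an unadjusted p under 0.05 for 15 members (24.2%) and 19.9% of genes. DESeq2 called 2 of 62 members in that test, Hsp90aa1 and Hspb7, among 6.18% of genes.

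**Figure D1:**
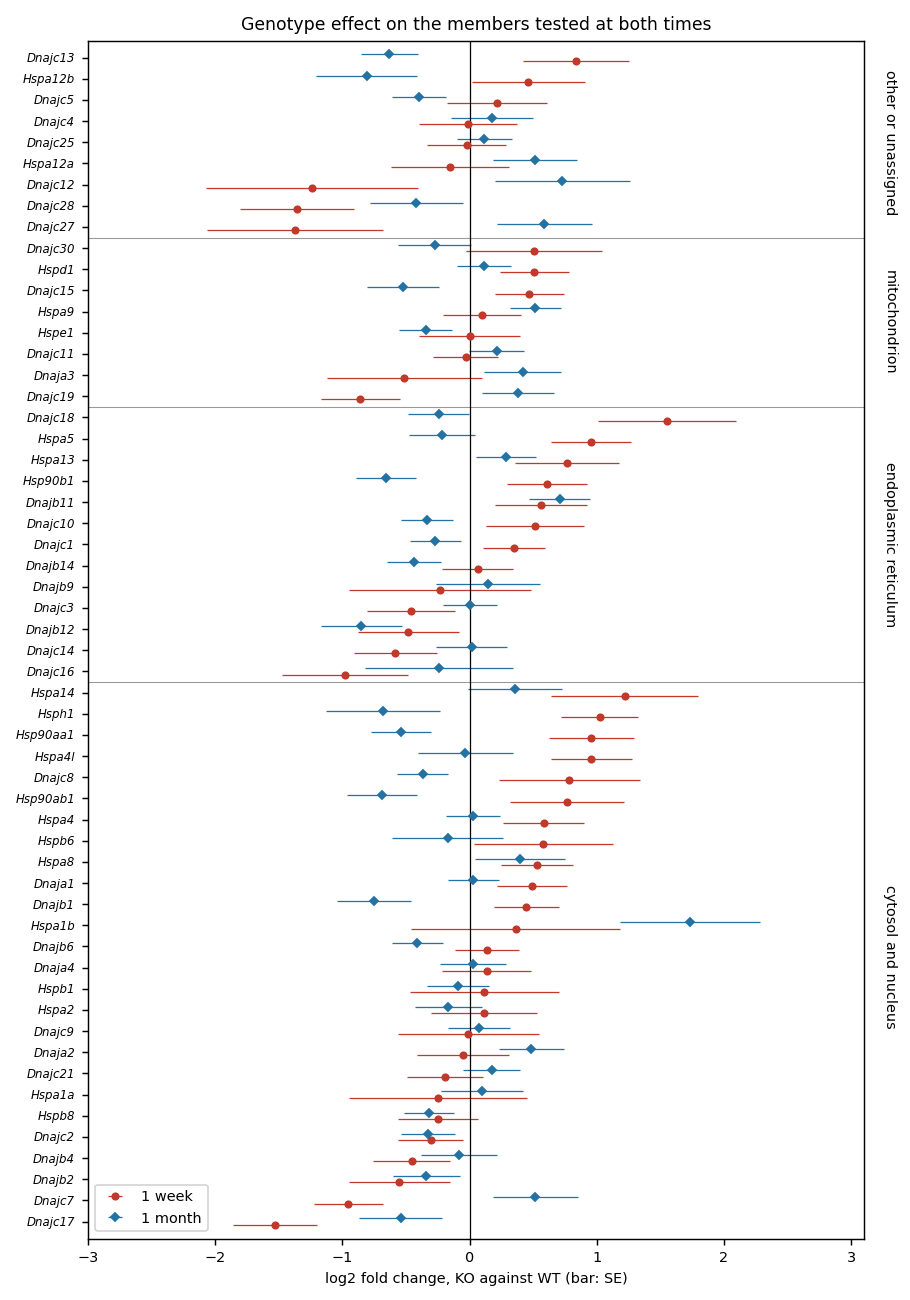
Fitted log2 fold change of KO against WT for the 56 members tested at both times, with 1 SE as bars, 1 week as red circles and 1 month as blue diamonds, grouped by compartment. In the cytosolic group Hsp90aa1, Hsp90ab1 and Hsph1 lie right of 0 at 1 week and left of it at 1 month, and no point passed the adjusted threshold.

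The HSP90 genes were higher in KO at 1 week and lower in KO at 1 month, all 3 of them each time, without passing the test. Hsp90aa1 (chr12:110690605-110702728, minus strand), the stress-inducible cytosolic HSP90, measured 628, 491 and 559 CPM in WT and 771, 992 and 1495 in KO at 1 week. Every KO library lay above every WT library, KO replicate 3 farthest (log2 0.96, SE 0.34, adjusted p = 0.246), and without KO replicate 3 the log2 difference was 0.61. After 1 month it measured 1267, 1025 and 664 CPM in WT and 660.4, 736 and 583 in KO (log2 -0.54, SE 0.23, adjusted p = 0.205). WT replicate 3 there lay inside the KO range, and the other 2 WT libraries were above it. Within batches the log2 difference at 1 month was -0.71 in batch 2 and -0.19 in batch 3. Hsp90ab1 (chr17:45567775-45573271, minus strand), the constitutive cytosolic HSP90 and the member with the most counts, measured 4580.1, 3479.9 and 3992 CPM in WT and 5405, 3806 and 11263 in KO at 1 week. KO replicate 1 was above the WT range, KO replicate 2 inside it and KO replicate 3 far above all others (log2 0.76, SE 0.45, adjusted p = 0.44). Without that library it was 0.15 on the log2 scale. The values of 1 month were 9754, 8079 and 5163 CPM in WT and 6666, 4757 and 3001 in KO (log2 -0.69, SE 0.28, adjusted p = 0.178). Within batch 2 and within batch 3 the WT libraries were higher, by log2 differences of -0.66 and -0.78, and DESeq2 called it (adjusted p = 0.0302). The third gene, Hsp90b1, is described with the ER.

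Of the HSP110 genes, Hsph1 (chr5:149614287-149636376, minus strand), a heat-inducible nucleotide exchange factor for HSP70, had no overlap between genotypes at 1 week. It measured 29.8, 28.5 and 24.9 CPM in WT and 57.1, 71.1 and 40.5 in KO at 1 week. The lowest KO library lay above the highest WT library (log2 1.02, SE 0.30, adjusted p = 0.189). Without KO replicate 3 it was 1.17 and passed (edgeR adjusted p = 0.0403). At 1 month the order was mixed, with 72.0, 48.1 and 32.1 CPM in WT and 14.9, 34.0 and 48.2 in KO. In batch 2 both WT libraries were above both KO libraries, and in batch 3 the KO library was the higher one, so that batch 2 gave -1.37 and batch 3 0.58 on the log2 scale (both batches log2 -0.68, SE 0.45, adjusted p = 0.414). Batch 2 alone passed (edgeR log2 difference -1.30, adjusted p = 0.032). Hspa4l (chr3:40744495-40796103), a relative of Hsph1, measured 17.0, 13.0 and 19.5 CPM in WT and 25.1, 38.2 and 32.7 in KO at 1 week. Its groups also did not overlap at 1 week (log2 0.96, SE 0.32, adjusted p = 0.222), and at 1 month its difference was -0.03. Hspa4, the third of this family, did not overlap at 1 week either (log2 0.58, adjusted p = 0.416).

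Among the cytosolic HSP70 genes, the constitutive Hspa8 (chr9:40800984-40810087) and the inducible pair Hspa1a and Hspa1b behaved differently. Hspa8 measured 505, 608 and 445 CPM in WT and 748, 860.0 and 643 in KO at 1 week. The KO libraries were all above the WT ones (log2 0.53, SE 0.28, adjusted p = 0.407). At 1 month the WT libraries themselves ranged over 192 to 646 CPM, with KO at 452 to 554 (log2 0.40, SE 0.35, adjusted p = 0.541). Hspa1a (chr17:34969190-34972156, minus strand) and Hspa1b (chr17:34956436-34959238, minus strand) are neighbouring genes for the heat-inducible HSP70. Hspa1a measured 18.5, 21.8 and 16.6 CPM in WT and 18.8, 26.3 and 2.45 in KO at 1 week. Only KO replicate 3 was far from the others, below them, and at 1 month all 6 libraries were at 12.9 to 27.5 CPM. Hspa1b varied more, with 14.2, 30.5 and 11.7 CPM in WT and 6.75, 56.1 and 9.20 in KO at 1 week. The single high library, KO replicate 2, made the difference positive (log2 0.36, SE 0.82, adjusted p = 0.846), and without it the value was -1.27. At 1 month Hspa1b measured 1.18, 1.80 and 17.1 CPM in WT and 11.1, 12.9 and 17.5 in KO. Both WT libraries of batch 2 were low, WT replicate 3 was as high as the KO libraries, and the fitted values were log2 1.73, SE 0.55, adjusted p = 0.111. Batch 2 gave 2.82 and batch 3 0.03. It was the member called most often under other settings at 1 month, by DESeq2 (1.91, adjusted p = 0.0115), in batch 2 alone (edgeR adjusted p = 0.000942), with Xist as a further covariate (edgeR adjusted p = 0.000487) and with no filter on low counts (edgeR adjusted p = 0.000205). Only KO replicate 3 had high Xist at that time, so batch and Xist terms together leave batch 3 almost no weight. The setting with Xist (log2 2.96) thus nearly repeats batch 2 alone (log2 2.99) and adds no separate result.

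The small heat shock proteins showed no common direction at 1 week, when 2 of 4 genes tested were higher in KO. At 1 month 0 of 4 tested were higher (median log2 -0.24), beside 49.6% of all genes, and none passed. Hspb1 (HSP25, chr5:135887919-135889563), the main one in this tissue by counts, measured 756, 605 and 825 CPM in WT and 1262, 898 and 210.4 in KO at 1 week. KO replicates 1 and 2 were above all WT libraries and KO replicate 3 was far below them, so the fitted difference was near 0 (log2 0.12, SE 0.59, adjusted p = 0.937) and was 0.52 without that library. At 1 month all 6 libraries were at 1355 to 1965 CPM (log2 -0.09, SE 0.24, adjusted p = 0.851). Hspb8, which works with the co-chaperone Bag3, was at 40.1 to 82.6 CPM at 1 week (log2 -0.25) and, at 1 month, at 188, 199.97 and 129.7 in WT and 182, 146 and 93.4 in KO (log2 -0.32). Hspb6 was at 4.74 to 23.7 and at 11.3 to 37.0 CPM, with log2 differences of 0.58 and -0.17. Hspb11, tested at 1 week only, was at 2.19, 5.72 and 1.35 CPM in WT and 1.22, 1.77 and 0.613 in KO (log2 -1.31, edgeR adjusted p = 0.411). Hspb7, a muscle-type member, was tested at 1 month only, where it was at 3.34, 5.94 and 9.33 CPM in WT and 2.84, 3.67 and 0.761 in KO (log2 -1.38, adjusted p = 0.196).

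The cytosolic J-domain genes divided between higher and lower. Dnajb1 (HSP40, chr8:83608193-83612653), an HSF1 target and a main partner of inducible HSP70, measured 63.4, 65.5 and 75.5 CPM in WT and 86.6, 87.8 and 104 in KO at 1 week. KO was above WT in all 3 libraries by a small amount (log2 0.45, SE 0.25, adjusted p = 0.426). At 1 month it measured 282, 206 and 84.9 CPM in WT and 106, 103 and 101 in KO. The KO libraries were nearly equal and the WT libraries spread widely, those of batch 2 above KO and WT replicate 3 below it (log2 -0.75, SE 0.29, adjusted p = 0.166). Batch 2 gave -1.21 and batch 3 0.25. In batch 2 alone edgeR called it (-1.22, adjusted p = 0.00613). Dnaja1 (chr4:40722150-40737149), a class A partner of Hspa8, measured 99.3, 111 and 92.9 CPM in WT and 130.2, 178 and 117 in KO at 1 week. Its groups did not overlap either (log2 0.49, SE 0.28, adjusted p = 0.428, and log2 0.26 without KO replicate 2), and at 1 month the difference was 0.03.

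In the other direction, Dnajc17 and Dnajc7 were lower in KO at 1 week. Dnajc17 (chr2:119172500-119208795, minus strand), a nuclear J-domain protein with an RNA-binding motif, measured 24.1, 19.1 and 28.8 CPM in WT and 9.73, 8.17 and 6.95 in KO at 1 week. Every KO library was below 19.1 CPM, the lowest WT value (log2 -1.53, SE 0.33, adjusted p = 0.117), and no other member had a smaller adjusted p at that time. It passed with DESeq2 (adjusted p = 0.00147), in 1 fit of all 12 libraries (edgeR adjusted p = 0.0246) and without KO replicate 3 (edgeR adjusted p = 0.046), and over its alternatives the adjusted p ran from 0.00147 to 0.507. At 1 month the values overlapped at 11.0, 14.2 and 8.11 CPM in WT and 12.2, 7.19 and 4.26 in KO (log2 -0.54, SE 0.33, adjusted p = 0.363). Dnajc7, whose protein binds both HSP70 and HSP90, measured 146, 122 and 158 CPM in WT and 86.7, 70.3 and 63.0 in KO at 1 week. The 3 KO libraries were below all WT libraries (log2 -0.95, SE 0.27, adjusted p = 0.174), and DESeq2 called it (adjusted p = 0.0233). Its levels at 1 month were 29.5, 40.5 and 88.4 CPM in WT and 80.7, 70.1 and 55.5 in KO. WT replicate 3 was the highest there and the other WT libraries the lowest, with a log2 difference of 1.12 in batch 2 and -0.67 in batch 3. Batch 2 alone passed, upward (edgeR log2 difference 1.11, adjusted p = 0.0112). Dnaja2, another class A gene called higher in batch 2 alone (edgeR log2 difference 0.91, adjusted p = 0.0228), had the same order, at 42.5, 38.7 and 136 CPM in WT and 70.5, 81.6 and 108 in KO. Among the remaining cytosolic J-domain genes, Dnajb4 was lower without overlap at 1 week (log2 -0.46, adjusted p = 0.493). Dnajb6 was at 338 to 431 CPM at 1 week and its difference was 0.14.

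**Figure D2:**
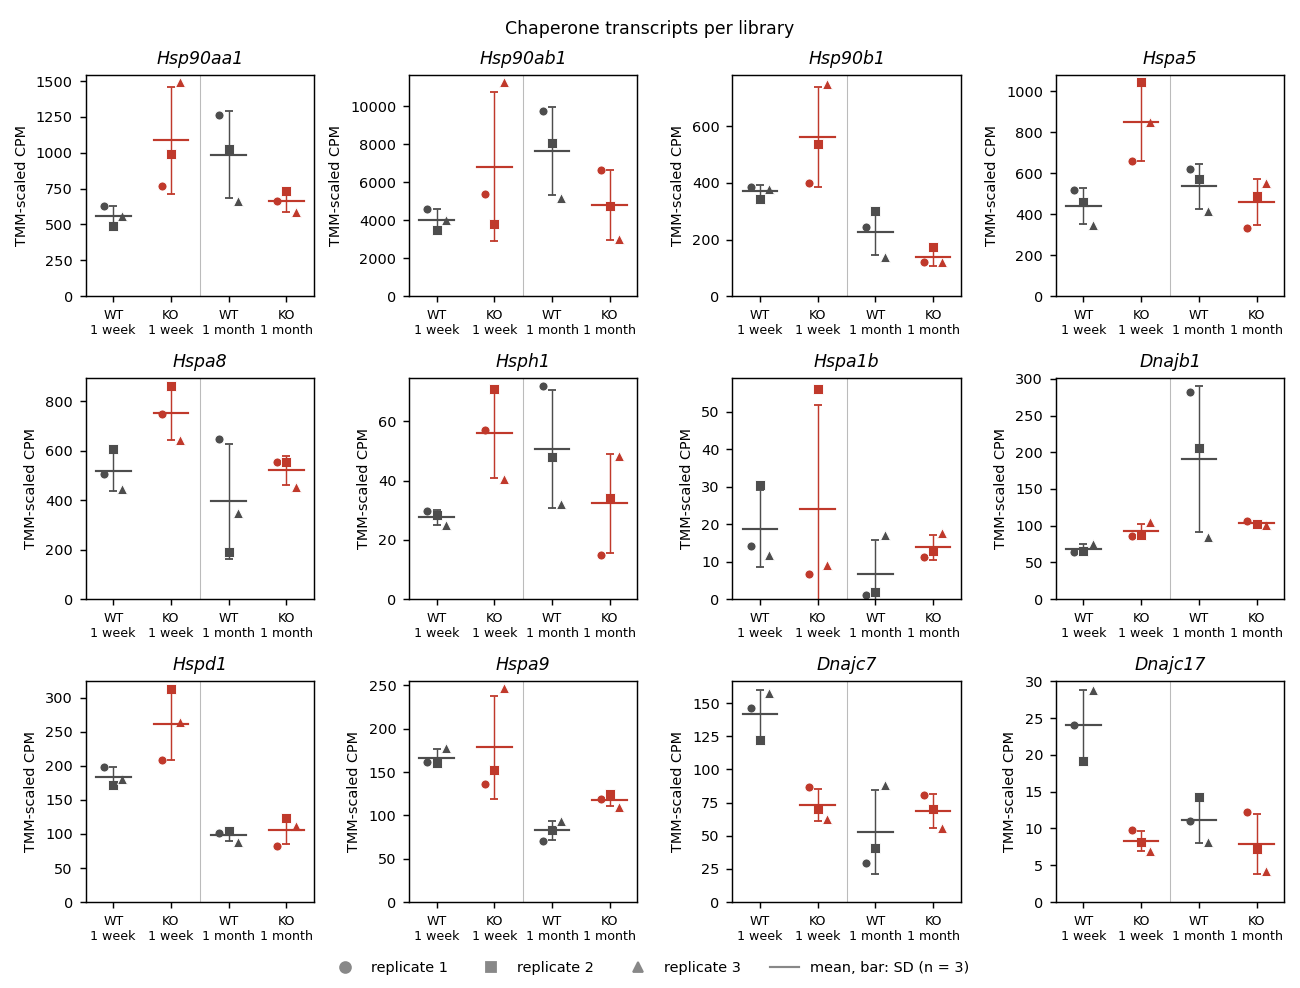
TMM-scaled CPM (vertical axes, from 0) of 12 members in each library by group, with symbols for replicates 1 to 3, a line at the mean and a bar for the SD (n = 3), cut at 0 for Hspa1b. The high WT values of Hsp90aa1, Hsph1 and Dnajb1 at 1 month are replicates 1 and 2, while WT replicate 3 lies at 664, 32.1 and 84.9 CPM.

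In the ER, 8 of 13 members were higher in KO at 1 week (median log2 difference 0.35, and 0.20 without KO replicate 3) and 5 of 13 at 1 month (median -0.24), and none passed. Hspa5 (BiP, chr2:34771970-34777547), the HSP70 of the ER, measured 517, 459 and 344 CPM in WT and 657, 1045 and 851 in KO at 1 week. The KO libraries were all above the WT ones (log2 0.95, SE 0.32, adjusted p = 0.222). After 1 month it measured 622, 569 and 413 CPM in WT and 334, 488 and 553 in KO, with overlap (log2 -0.22, SE 0.26, adjusted p = 0.649), and the batches differed in sign at -0.56 and 0.42. Hsp90b1 (GRP94, chr10:86690209-86705509, minus strand), the HSP90 of the ER, measured 386, 344 and 380.3 CPM in WT and 401, 539 and 751 in KO at 1 week. It was higher in each KO library (log2 0.61, SE 0.31, adjusted p = 0.399), KO replicate 1 by little, and without KO replicate 3 the log2 difference was 0.30. At 1 month it measured 243, 299 and 137 CPM in WT and 121, 172 and 121 in KO. Both WT libraries of batch 2 were above all KO libraries, and WT replicate 3 was between KO values (log2 -0.66, SE 0.23, adjusted p = 0.134). Batch 2 gave -0.90 and batch 3 -0.18, and batch 2 alone passed (edgeR adjusted p = 0.0344). These 2 genes carry the ER stress response element in the promoters printed above, as does Dnajc3, whose promoter is not shown. Dnajc3, an inhibitory co-chaperone of the same response, measured 139, 140.0 and 119 CPM in WT and 94.8, 135 and 59.9 in KO at 1 week. It had the opposite sign at 1 week (log2 -0.46, SE 0.34, adjusted p = 0.54), and its groups overlapped.

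The other ER co-chaperones went in both directions. Dnajb9, whose protein acts on Hspa5 and the stress sensor IRE1, was at 5.59 to 7.70 CPM in WT and 0.818 to 9.17 in KO at 1 week (log2 -0.23). Dnajb11, a soluble partner of Hspa5, was at 29.0 in KO replicate 1, inside the WT range of 24.4 to 37.8, and at 53.9 and 59.1 in the others (log2 0.56). At the later time it measured 14.2, 20.5 and 29.4 CPM in WT and 27.6, 32.3 and 43.5 in KO (log2 0.71, SE 0.24, adjusted p = 0.12). Its lowest KO library was under the highest WT library, WT replicate 3, and within batches the values were 0.80 and 0.56. Dnajc10, a disulphide reductase, measured 99.7, 79.2 and 91.0 CPM in WT and 90.1, 91.7 and 205 in KO at 1 week. Only KO replicate 3 differed, and the log2 difference of 0.52 was -0.03 without it. At 1 month all 3 KO libraries were below WT at 91.3, 89.3 and 81.2 CPM in WT and 79.1, 58.0 and 70.2 in KO (log2 -0.33, SE 0.20, adjusted p = 0.364). At the later time Dnajb14, a J protein of the ER membrane, measured 64.9, 68.6 and 53.8 CPM in WT and 39.0, 48.1 and 51.1 in KO. It did not overlap either (log2 -0.44, SE 0.21, adjusted p = 0.259), and at 1 week its difference was 0.06. Dnajb12, of the same kind, was lower in KO within batch 2 (edgeR adjusted p = 0.0358) and at 5.05 in WT and 4.41 CPM in KO in batch 3. Dnajc18 (chr18:35671103-35708414, minus strand), also of the ER membrane, had the largest log2 difference upward of the members without overlap at 1 week. It measured 20.5, 17.9 and 23.2 CPM in WT and 37.4, 28.7 and 115 in KO at 1 week. KO replicate 3 set most of its size (log2 1.55, SE 0.54, adjusted p = 0.246), and without it the difference was 0.63.

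In the mitochondrion, 5 of 8 members were higher in KO at either time (median log2 0.05 and 0.16). Hspd1 (HSP60, chr1:55077835-55088243, minus strand) and Hspe1 (HSP10, chr1:55088132-55091307) form the chaperonin and share the promoter printed above. Hspd1 measured 199, 172 and 181 CPM in WT and 208, 313 and 264 in KO at 1 week. The KO libraries were above WT (log2 0.51, SE 0.27, adjusted p = 0.408, and log2 0.33 without KO replicate 2). Hspe1 measured 126, 124 and 91.6 CPM in WT and 121, 161 and 59.1 in KO at 1 week, with overlap and a difference of 0.00, so that its partner's separation was not seen there. At 1 month both overlapped, with log2 differences of 0.12 for Hspd1 and -0.34 for Hspe1. Hspa9 (mortalin, chr18:34937414-34954357, minus strand), the motor of protein import, overlapped at 1 week (log2 0.10). Its levels at 1 month were 70.8, 83.3 and 93.6 CPM in WT and 118, 125 and 110.0 in KO. It was the single member with all KO libraries above all WT libraries (log2 0.51, SE 0.20, adjusted p = 0.166), and the batches gave 0.66 and 0.23. Dnaja3, the J-domain partner of Hspa9, was at 7.57 to 14.8 CPM in WT and 2.66 to 13.8 in KO at 1 week (log2 -0.51).

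The J proteins of the import motor, Dnajc15 and Dnajc19, took opposite signs. Dnajc15 measured 24.6, 23.2 and 23.0 CPM in WT and 34.9, 26.9 and 36.4 in KO at 1 week (log2 0.47, SE 0.27, adjusted p = 0.435). Dnajc19 measured 28.3, 30.0 and 24.3 CPM in WT and 15.1, 18.7 and 11.7 in KO at 1 week (log2 -0.86, SE 0.31, adjusted p = 0.255). Neither pair of groups overlapped. At 1 month both overlapped and their signs were reversed, -0.52 for Dnajc15 and 0.38 for Dnajc19. The difference between the times was -0.98 (adjusted p = 0.238) and 1.26 (adjusted p = 0.165), so neither reversal passed.

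**Figure D3:**
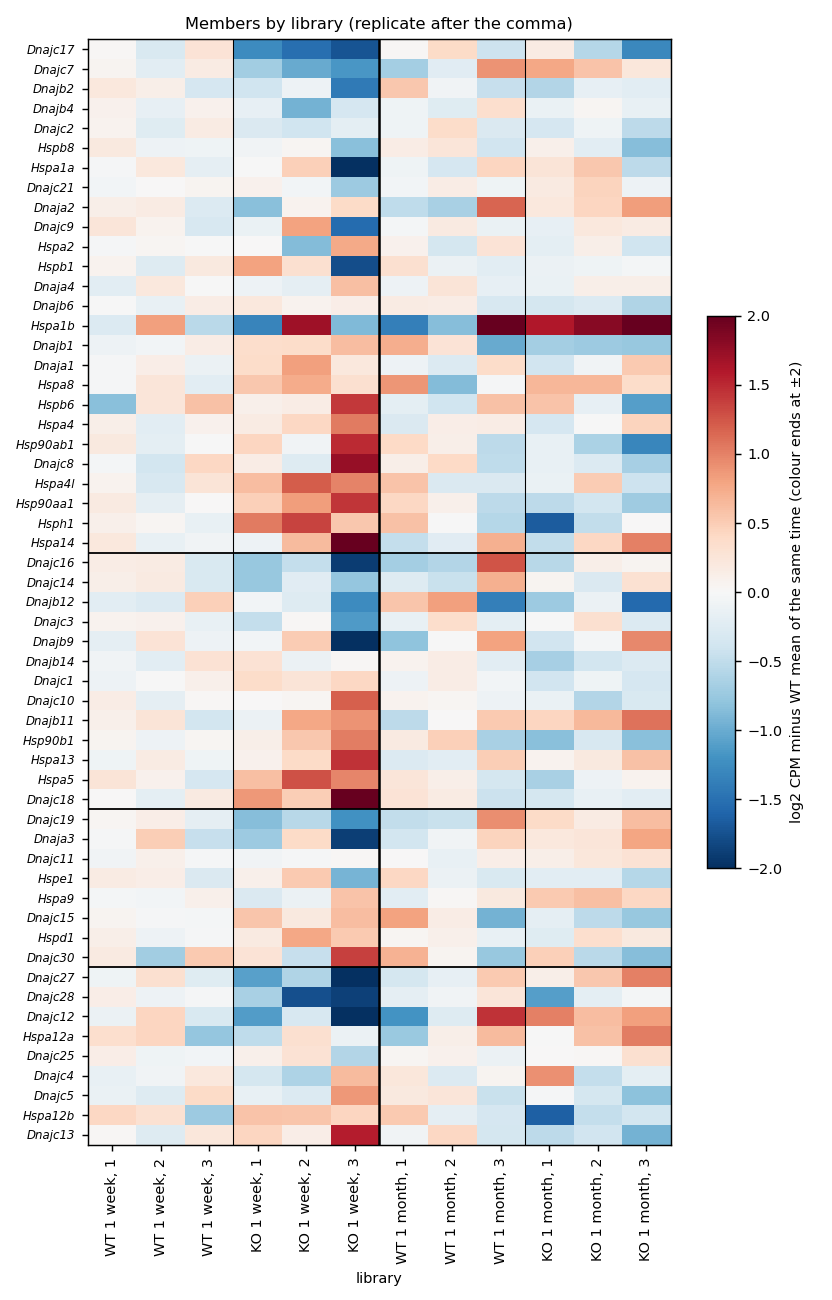
Log2 CPM of the 56 members tested at both times in each library (columns, replicate number after the comma), as the difference from the WT mean of the same time, from blue (lower) to red (higher), with black lines between cytosol, ER, mitochondrion and others from top to bottom. KO replicate 3 of 1 week holds the most extreme colours, both ways, and since each row is centred on its WT mean, the WT libraries of a time must lie on both sides of 0.

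Among the members of other or unassigned places, 3 of 11 were higher in KO at 1 week (median log2 -0.15) and 5 of 9 at 1 month (median 0.12). Dnajc6 (auxilin), which strips clathrin from vesicles, measured 3.04, 5.60 and 3.11 CPM in WT and 1.08, 0.552 and 0.818 in KO at 1 week. Its KO libraries were all lower (log2 -2.25, SE 0.54, adjusted p = 0.138), and DESeq2 called it (adjusted p = 0.0196), at levels of a few CPM. Dnajc28, Dnajc27 and Dnajc12 were also lower without overlap at 1 week, with log2 differences of -1.36, -1.37 and -1.24 and adjusted p of 0.221, 0.387 and 0.494. In KO replicate 3, Dnajc27 and Dnajc12 were at 0.204 CPM, under the floor of 3 counts. Dnajc13, which acts on endosomes, measured 99.9, 82.5 and 115 CPM in WT and 132, 108 and 291 in KO at 1 week. KO replicate 2 was inside the WT range there and KO replicate 3 was far above it. At 1 month it measured 39.2, 54.9 and 32.3 CPM in WT and 28.6, 31.5 and 21.3 in KO, and the KO libraries were all below WT (log2 -0.63, SE 0.22, adjusted p = 0.133). Hspa12b, an unusual HSP70 known from endothelium, measured 6.08, 5.60 and 2.59 CPM in WT and 6.75, 6.74 and 6.13 in KO at 1 week. The values of 1 month were 17.5, 10.6 and 9.48 CPM in WT and 3.70, 8.63 and 9.28 in KO. The KO libraries were above all WT libraries at 1 week and below them at 1 month, each time by small margins against the spread (log2 0.46, SE 0.44, adjusted p = 0.625 and log2 -0.81, SE 0.40, adjusted p = 0.262).

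The partners of these chaperones did not pass either, apart from 1 gene. Of 32 heat shock regulators and co-chaperones, 31 were tested at 1 week (16 higher, 15 lower, 0 called) and 32 at 1 month (10 higher, 22 lower, 0 called). Hsf1 itself, named after its values were seen, had log2 differences of -0.89 at 1 week (adjusted p = 0.4) and 0.81 at 1 month (adjusted p = 0.212). None of the 14 genes of the cytosolic chaperonin and prefoldin passed (medians -0.10 and -0.16). Of 25 tested ER stress and folding partners 14 were higher at 1 week and 12 at 1 month, with 0 called. Of 20 genes of mitochondrial import and quality control, 16 were lower in KO at 1 week (median -0.29, 0 called). At 1 month 13 were higher (median 0.13), and Phb2, a prohibitin of the inner membrane, rose in KO (log2 1.13, SE 0.24, adjusted p = 0.0322).

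Summed over all 72 members, chaperone RNA was at 9298 to 10919 CPM in WT and at 12779, 11947 and 20295 in KO at 1 week. At 1 month it was at 17421, 14478 and 10593 in WT and 12260, 10699 and 8566 in KO. Hsp90ab1 alone made up much of each sum. Other lists moved with the groups, and their part in the chaperone values was not tested. Immediate early genes, which respond to dissection as well as to growth factors, were summed at 1084 to 1217 CPM in WT, 1443 and 1491 in KO replicates 1 and 2 and 4757 in KO replicate 3 at 1 week (14 of 18 higher, 0 called). At 1 month they were at 1156 to 1442 in WT and 1058 to 1376 in KO, and Ier5 rose (log2 1.03, adjusted p = 0.0448). Markers of dividing cells were at 15.8 to 17.3 CPM in WT and 102 to 663 in KO at 1 week (5 of 5 tested higher, 0 called), and overlapped at 1 month.

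Markers of cells under the urothelium were higher in KO at 1 week too, with 0 called: 8 of 10 for smooth muscle (summed CPM 184 to 398 in WT, 515 to 1278 in KO), 7 of 7 for fibroblasts (3405 to 5576 and 4564 to 9985), 5 of 5 for endothelium (148 to 172 and 244 to 378) and 5 of 5 tested for immune cells (136 to 225 and 244 to 470). At 1 month smooth muscle markers were at 302, 424 and 1257 CPM in WT and 304, 627 and 299 in KO, and Smtn fell (log2 -0.99, adjusted p = 0.0272). Immune markers were at 493 to 1036 in WT and 209 to 312 in KO, and C1qa, C1qb and Cd74 fell (log2 -1.95, -1.38 and -1.76). Endothelial markers were at 98.8 to 160.4 CPM in WT and 184 to 349 in KO (5 of 5 higher, 0 called). Fibroblast markers were at 9680 to 13387 in WT and 7634 to 9375 in KO (3 higher and 4 lower). Of these only Pdgfrb was called, and it rose, against the sum (log2 1.30, adjusted p = 0.0218). The 15 urothelial markers were summed above each of the other marker lists in every library. At 1 week they were at 13047 to 16108 CPM in WT and 11395 to 15177 in KO (6 higher and 9 lower, 0 called). At 1 month they were at 31106, 20635 and 17142 CPM in WT and 17756, 14214 and 12271 in KO. Of the 15, 11 were lower in KO (3 without overlap, as were 7.58% of all genes). The other 4 were higher (1 without overlap, as were 5.72% of all genes). That 1 was Krt5, at 112, 206 and 505 CPM in WT and 604, 617 and 674 in KO. The groups of the urothelial sum overlapped at 1 month, with means of 22961 in WT and 14747 in KO. Its part in the summed chaperone levels of 1 month (means of 14164 CPM in WT and 10508 in KO, also with overlap) was not tested. Of these markers Krt20, a keratin of umbrella cells, fell at 1 month (log2 -1.76, adjusted p = 0.00601). No marker was at 0 in every library.

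**Figure D4:**
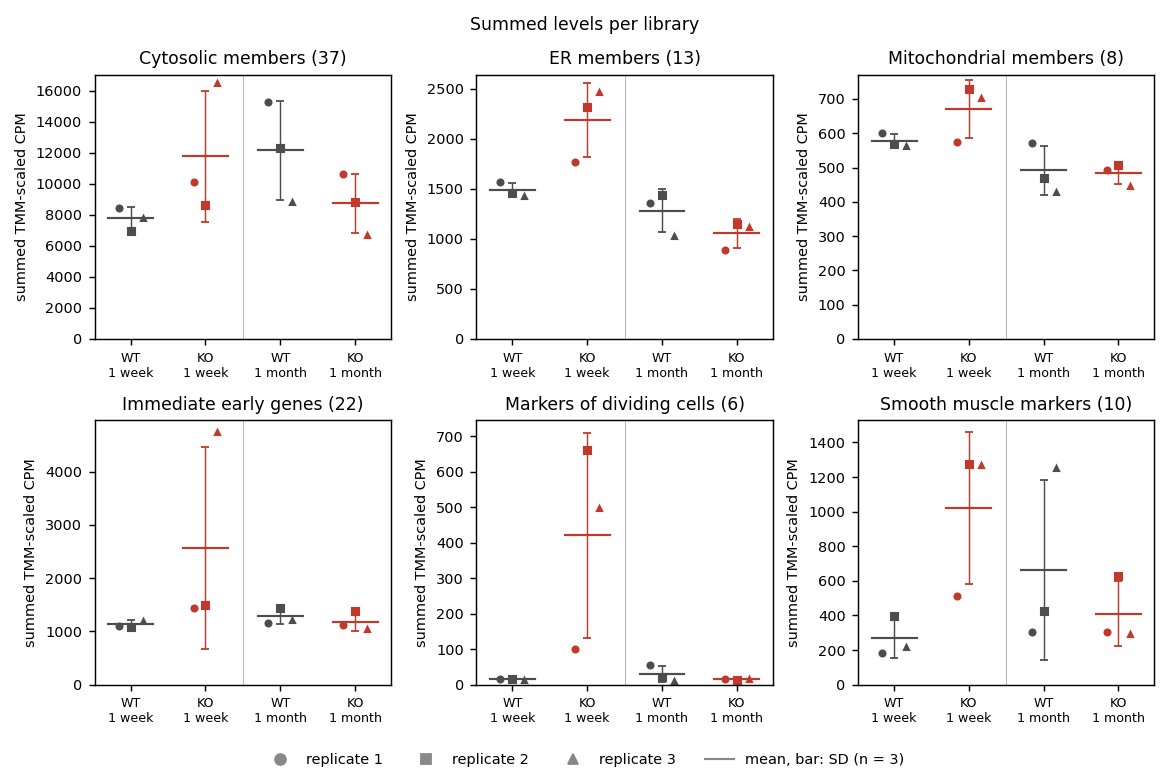
Summed TMM-scaled CPM (vertical axes, from 0) per library of the cytosolic, ER and mitochondrial members and of 3 other gene lists, by group, with symbols for replicates, a line at the mean and a bar for the SD (n = 3). KO replicate 3 of 1 week is highest for cytosolic and ER members (16547 and 2474 CPM) and for immediate early genes (4757). The ER sum does not overlap between genotypes at 1 week, and much of it is Hspa5 and Hsp90b1 (means of 440 and 370 CPM in WT, 851 and 564 in KO). Singly, 4 of 13 ER members were higher without overlap (14.1% of all genes) and 1 was lower (12.5% of all genes).

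The difference of the genotype effect between the times is the measure of whether a member's lower or higher level in KO at 1 month departed from that at 1 week, and no member passed it. Hsp90aa1 had the smallest adjusted p of the members (log2 -1.49, SE 0.42, adjusted p = 0.121), and DESeq2 called it (-1.54, adjusted p = 0.0169). Hsp90ab1 (-1.44, adjusted p = 0.19), Hsp90b1 (-1.25, adjusted p = 0.162), Hsph1 (-1.70, adjusted p = 0.183), Hspa5 (-1.16, adjusted p = 0.191) and Dnajb1 (-1.18, adjusted p = 0.189) had the same sign. Dnajc7 (1.49, adjusted p = 0.153) and Dnajc17 (1.00, adjusted p = 0.246) had the opposite one. Hspb7, tested there with low counts at 1 week, was at -3.77 (adjusted p = 0.17), and DESeq2 called it (-3.93, adjusted p = 0.0365). Its levels at 1 week were 0.851, 1.17 and 0.518 CPM in WT and 1.76, 0.994 and 11.0 in KO. The single high library there was KO replicate 3. In the test of the difference between times, the time term carries the batches with it.

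The remaining members did not pass either, and a few are given here, named after their values were seen. Hspa14, Hspa13 and Dnajc8 had their highest level of 1 week in KO replicate 3. In that library Hspa14 was at 69.3 CPM, against 13.7 to 23.6 in the other 5 libraries. Hspa13, an HSP70 of the ER, was at 67.3 there and 22.9 to 31.9 elsewhere, and Dnajc8, a protein of the spliceosome, at 1043 and 240.3 to 415. The log2 differences of the 3 were 1.22, 0.76 and 0.78 (adjusted p = 0.366, 0.409 and 0.516). Dnajc1, an ER membrane J protein, was at 167 to 190.2 CPM in WT and 214 to 238 in KO (0.35, adjusted p = 0.51), and Dnajc16, also of the ER, at 4.87 to 6.89 and 1.43 to 4.31 (-0.98, adjusted p = 0.39). Dnajc11, a mitochondrial membrane member, barely varied, at 27.6 to 31.2 CPM in all libraries of 1 week and 24.1 to 32.4 at 1 month.

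Not all members could be measured. At both times 11 were too low to test (Dnajb13, Dnajb5, Dnajb7, Dnajb8, Dnajc22, Dnajc5b, Dnajc5g, Hspa1l, Hspb2, Hspb3 and Hspb9), and of these Dnajb8, Dnajc5b and Hspb3 had no count in any library. Hspb7 was too low at 1 week only, and Dnajb3, Dnajc24, Dnajc6 and Hspb11 at 1 month only, which left 56 members tested at both. Some counts may include reads of near-identical copies. Of the 50-base stretches in the last 300 bases of their transcripts, 73.7% were also found in another gene for Hspa8, 52.3% for Dnaja1, 43.8% for Hspe1, 39.2% for Hspd1 and 37.6% for Hsp90aa1, and 19% for Hspb1 and 15.5% for Dnajc17. These shares are of stretches and not of reads. How reads matching several genes were counted was not examined, so the levels of these 7 genes are uncertain by an unknown amount. Hspa1a and Hspa1b share no such stretch.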

How the data were processed

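Gene counts were measured in 12 libraries of 4 groups (3 each), made from total RNA with a 3′ end kit (QuantSeq, forward) primed with oligo-dT, per the labels' protocols. The authors deposited raw counts per gene for each time in its own table. Per the submitters' processing notes Bowtie, TopHat, HTSeq and DESeq2 were used with build mm10, and HTSeq's stranded mode is the one the labels' protocols name. Versions and the annotation are not given in the sources used here. Reads without molecular identifiers are not independent molecules, so the floor of 3 counts covers counting error only. Nothing in the labels says more than that libraries are separate samples, so p-values measure the spread between these samples. No pair of replicates agreed within sampling noise (chi-square per degree of freedom 8.59 to 185). Replicates were numbered in accession order and pair nothing. The column of WT replicate 3 at 1 month was matched by its library name, which differs from the number in its title. Between 2.49% and 9.78% of counts were Rn45s, which was kept.

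Counts were tested with edgeR 4.0.16 (R 4.3.3) by the quasi-likelihood test with robust dispersions, TMM scaling and its default filter on low counts by group, two-sided, over all genes (0.05 after Benjamini-Hochberg adjustment). The 1 week fit had no covariate, the 1 month fit had batch, and the difference between times was fitted over all 12 libraries. The SE is the log2 fold change divided by the root of the F statistic. Within-batch differences are of mean log2 CPM with a prior count of 2. DESeq2 1.42.0 was an alternative, as were other scalings, filters, no batch term, Xist as a covariate, batch 2 alone, 1 fit of all libraries and each replicate left out. Leaving out KO replicate 3 or batch 3 in the counts of members without overlap was added after seeing the data. Each fit was first tested on simulated data. Positions are those of GENCODE M21 (GRCm38, the build mm10). The members and the 11 other gene lists (164 genes, all matched, 2 by an older symbol) were chosen with earlier results of these data known. Named members were those called, the classic inducible, constitutive, ER and mitochondrial ones, and, per time, the 5 higher and 5 lower ones (or fewer) of largest fold change whose groups did not overlap. Other members named were chosen after their values were seen.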

Additional observations from a re-analysis of the deposited data

Results flagged for a closer look

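Hspa12b was flagged because its 3 KO libraries lay above all WT libraries at 1 week and below all of them at 1 month. Of all genes tested, 14.1% lay above at 1 week and 7.58% lay below at 1 month. The share of genes that did both was not counted, so the reversal cannot be called particular to Hspa12b. Its difference of the genotype effects was -1.26 on the log2 scale (edgeR's quasi-likelihood test, SE 0.65, adjusted p = 0.296), which did not pass. Endothelial markers, the cells this gene is known from, were summed at 148 to 172 CPM in WT and 244 to 378 in KO at 1 week and were also higher in KO at 1 month, at 184 to 349 against 98.8 to 160.4. Their part in its values was not tested.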

How the results depend on the processing

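No paired analysis was possible because the labels give no replicate numbers and accession order pairs no animals. The count of 0 members called at 1 week became 3 with DESeq2 (6.32% of all genes called), 2 in 1 fit of all 12 libraries (4.21%) and 0 to 2 with 1 replicate left out (2 without KO replicate 3, Dnajc17 and Hsph1, with 2.45% of genes). At 1 month it became 3 with no filter on low counts (7.09% of genes), 2 with DESeq2 (6.21%), 7 in batch 2 alone (12.2%), 4 with Xist as a covariate (11.4%) and 0 to 7 with 1 replicate left out (7 without either replicate 3, with 12.3% of genes, which leaves batch 2 to decide). The setting with Xist also leaves batch 2 nearly alone to decide. For the difference between times it became 2 with DESeq2 (6.18%). With no batch term no gene was called at 1 month (0% of genes). In batch 2 alone 15 members were higher and 21 lower without overlap, as were 29.9% and 28.4% of genes.

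Scaling by library size alone moved the median of all genes at 1 month from -0.01 to 0.22, and the medians of cytosolic, ER and mitochondrial members to 0.14, -0.0083 and 0.39. The mitochondrial median was 0.21 with no filter and 0.13 in batch 2 alone. With 1 replicate left out, medians ran from 0.12 to 0.32 for cytosolic, 0.20 to 0.36 for ER and -0.12 to 0.11 for mitochondrial members at 1 week, from -0.19 to -0.0462 for cytosolic members at 1 month, from -0.27 to -0.11 for ER members at 1 month and from 0.0877 to 0.27 for mitochondrial members at 1 month.

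Hspe1 at 1 week turned sign under 6 settings, with -0.0131 by DESeq2's size factors, -0.0100 by library size, -0.0372 with no filter, -0.0259 with DESeq2, -0.0334 without the 10 most abundant genes and -0.0201 in 1 fit of all libraries. At 1 month library size gave 0.14 for Hspb1, 0.0199 for Hspa5 and 0.21 for Hspa4l. Hspa4l was 0.0115 with no filter, 0.0206 in batch 2 alone and 0.13 with Xist. Dnajc3 was -0.0063 in 1 fit of all libraries, and Dnaja1 -0.0330 in batch 2 alone. With 1 replicate left out, the log2 differences that changed sign ran at 1 week from -0.40 to 0.52 for Hspb1, -0.0745 to 0.17 for Dnajb14, -0.37 to 0.27 for Hspe1, -1.27 to 0.88 for Hspa1b, -0.86 to 0.21 for Hspa1a, -0.89 to 0.22 for Dnajb9, -0.0308 to 0.70 for Dnajc10 and -0.25 to 0.24 for Hspa9, and at 1 month from -0.16 to 0.62 for Hspa1a, -0.23 to 0.0796 for Hspb1, -0.0429 to 0.39 for Dnajb9, -0.14 to 0.14 for Dnajc3, -0.28 to 0.24 for Hspa4l, -0.0446 to 0.18 for Dnaja1, -0.0267 to 0.34 for Hspd1 and -0.54 to 0.0672 for Hspa5. The cause was not tested. Of the single-gene values under other settings, 872 kept direction and side of the threshold, 25 came to pass it and 45 turned sign.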
